A study of Mus musculus with 25 samples.

Results

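The regions described here are the 22306 stretches of the mouse genome on chromosomes 1 to 19 and X listed for a ChIP of N1 (Notch1) in mK4 cells, out of 222370 regions in the 9 lists of the series. They were taken as all rows of the deposited ChIP table, which held 22307, and 1 on chromosome Y was set aside. mK4 is a cell line derived from mouse embryonic kidney mesenchyme. The ChIP arm is 1 N1 ChIP library, in which N1 was pulled down from sonicated, cross-linked chromatin through a myc tag, set against 1 ChIP input library. Both carry the strain label CD1, and the labels give no treatment, time or construct for either. The lists set beside it come from the same line. They are SpDamID lists for N1/RBP, N1/MAML and N1/p300 (3 libraries each), N1/N1 (2), Mef2c/MAML (1) and Mef2c/p300 (1), all scored over Dam alone (3), and peaks of open chromatin from libraries labelled N1wt FAIRE (3, beside 3 of control FAIRE and 1 input). SpDamID joins inactive parts of the methylase Dam to both named proteins, so that DNA is marked where they meet. In these fusions 1 partner carries D and the other AM with Ert2. All SpDamID libraries are labelled CD1, except 1 of N1/N1 (CD2) and that of Mef2c/MAML (CD3). With 1 library per arm, nothing below has a replicate error or a test.

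Notch1 is a cell surface receptor. When a ligand binds, it is cut, and its intracellular part enters the nucleus. There it joins the DNA-binding protein RBP (RBPJ) and the co-activator MAML, which brings in the acetyltransferase p300, and genes nearby are switched on. In the developing kidney, Notch signalling acts as mesenchyme forms nephrons. Mef2c is a MADS-box transcription factor that is not a core member of the Notch complex. FAIRE recovers open chromatin, where enhancers and promoters lie. No annotation or genome of the lists' build, mm9, was used here, so regions are given by position, with no gene name and no sequence.

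Most regions were thinly covered in the ChIP and had no measured input. The ChIP signal of a region multiplied by its length was a whole number in all 22306 regions (tolerance 0.001), as for a mean number of reads per base. The input signal was exactly 0.1 in 20102 regions (90.1%). In 2118 of the other 2204, input times length was whole, and in 86 it was not. In regions of at least 300 bp with such a whole product, it was a multiple of 51 bases in 1074 of 1441 regions (74.5%). Any other length from 46 to 56 bases gave between 2 and 10 of them. These are the values that reads of 51 bases would give, and 824 of the 1441 regions held 51 input bases, the worth of 1 read. The value 0.1 is read here as a stand-in for an input with no reads, which no header states. At that value a ratio above 10 asks only for a ChIP signal above 1 read per base. An input read with all 51 bases inside a region gives more than 0.1 in any region under 510 bp. A read that only reaches the edge can give less, and 727 regions held an input above 0 but under 51 bases.

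The ChIP signal had a median of 1.5 reads per base, with quartiles of 1.196 and 2.01. It was under 2 in 16081 regions (72.1%) and 5 or more in 910 (4.08%), with a highest value of 37.7. The fewest reads of 51 bases that could give a region's signal had a median of 5, with quartiles of 3 and 10. Only 2 reads or fewer were needed for 5479 regions (24.6%), all of them under 200 bp. The ratio of ChIP to input ran from 10.01 to 1910, with a median of 15. A ratio of 20 or more was reached by 6117 regions, which is 27.4% of the list, and by 42.1% of the 2204 whose input was not 0.1.

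The median ChIP signal was 1.40 in the 5858 regions of at least 300 bp, 1.42 in the 2637 of 200 to under 300 bp and 1.57 in the 13811 under 200 bp. On the log2 scale, long minus short was -0.17. Among regions whose input was not 0.1 the medians were 1.68, 2.54 and 2.65 in the same order, and long minus short was -0.65. An input other than 0.1 was found in 24.9% of the long, 9.44% of the middle and 3.61% of the short regions. The ratio threshold acts on these shares, since 1 whole input read weighs more in a short region, which then needs a higher ChIP signal to be listed. The median lengths were 475, 243 and 69 bp, and the part of length itself in these shares was not tested. The fewest reads had medians of 15, 7 and 3 in the same order. A ratio of 20 or more was reached by 22.5%, 20.4% and 30.9%, against 27.4% of the whole list. The 5092 regions shorter than 51 bp had a median ChIP signal of 1.83 and 43.4% at a ratio of 20 or more. They are shorter than the inferred read, so a read that covers one also reaches into the sequence beside it. Across all 22306 regions, Spearman's rho between ChIP signal and length was -0.199, as a description. Both share the library and the threshold, which a short region passes with fewer reads.

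**Figure D1:**
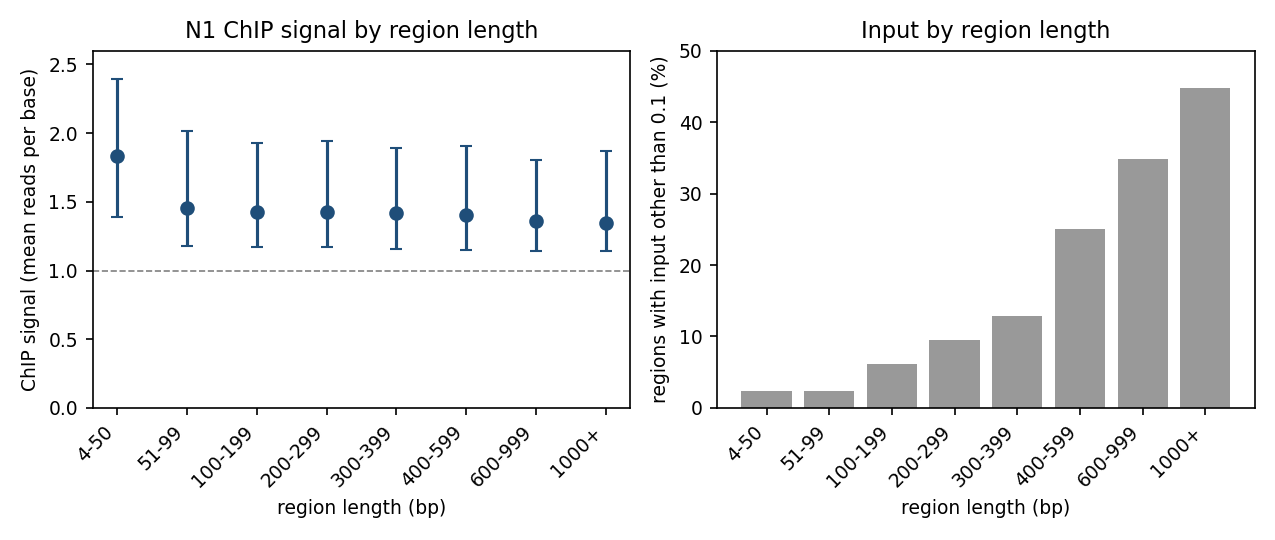
Left, median ChIP signal (points, mean reads per base) with quartiles (bars) against region length in bp, with the dashed line at 1 read per base. Right, share of regions whose input differs from 0.1. The median signal lies at 1.83 below 51 bp and between 1.35 and 1.45 in every longer class, while the input share climbs to 44.8% from 1000 bp up.

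The highest ratios came from inputs of a few bases. The 10 highest among regions with an input other than 0.1 ran from 471 to 1910, and their inputs amounted to 1 to 2 bases. The first, on chromosome 3 from 96043867 to 96043986 (120 bp), had a ChIP signal of 15.9 and an input of 1 base. The next, at 93087027 to 93087197, had a ChIP signal of 7.92 and lay in a run of 18 joined regions outside total FAIRE. Another of 120 bp, 96024461 to 96024580, had 8.34, and one of the same length on chromosome 13, 51298143 to 51298262, had 7.78. A high ratio did not need a high signal: on chromosome 15 the region from 31531393 to 31531967 reached 877 with a ChIP signal of 1.53. Of the 10 regions, 8 lay in total FAIRE and 2 in an SpDamID list, beside 38.6% and 13.5% of all regions with an input other than 0.1. The 27 regions with an input of 1 base had ratios from 16 to 1910. With the input raised to at least 0.1, the highest ratio in the list was 377 and 22276 regions stayed above 10. The 1043 regions with an input below 0.1 had a median ratio of 22.9 as deposited and 13.6 with the input raised.

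Open chromatin held more of the regions of middling ChIP signal than of the weakest or the strongest. Total FAIRE overlapped 5689 ChIP regions, 25.5% (exact Clopper-Pearson 95% interval 24.9 to 26.1%). This interval covers counting error only and takes regions as independent, which neighbours are not. By ChIP signal, the share was 18.7% of the 5639 regions under 1.2 reads per base, 24.2% from 1.2, 28.1% from 1.5, 32.9% from 2 and 34.6% of the 1510 from 3 to under 5. Of the 910 regions at 5 or more it was 14.7%, or 134 regions. Among regions of at least 300 bp the share was 29.1% under 1.2, 50.96% from 2 to under 3 and 13.6% of the 206 at 5 or more. An input other than 0.1 was found in 66.0% of those 206 and in 15.8% of the long regions under 1.2. The ratio threshold acts on these shares too, since it lets a region of low ChIP signal be listed only with a low input. Of the 910, 341 (37.5%) lay in 3 windows of 1 Mb, on chromosomes 2, 3 and 6, described further on, and chosen after their values were seen. Without these windows 23.6% of the remaining 569 lay in total FAIRE.

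**Figure D2:**
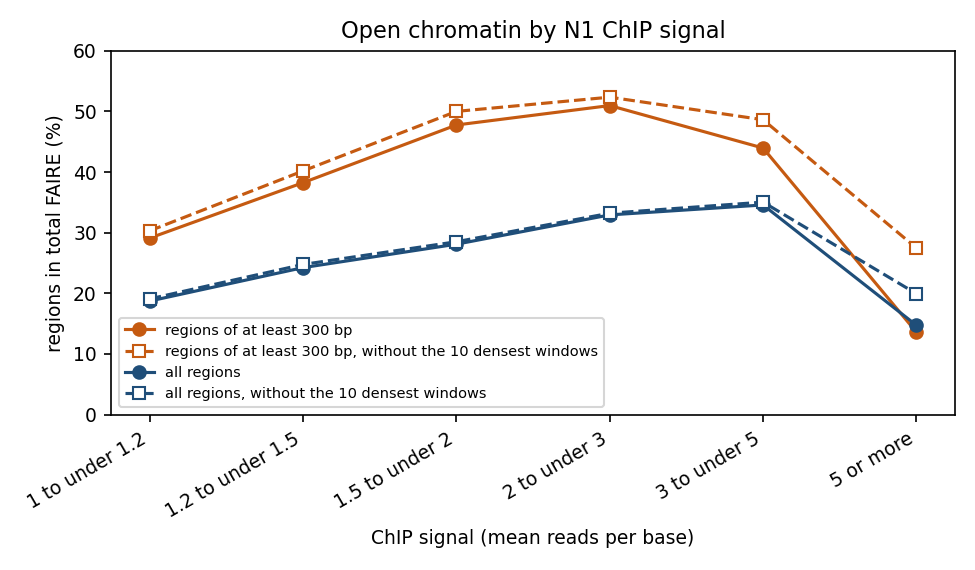
Share of N1 ChIP regions that overlap a total FAIRE peak, by class of ChIP signal in mean reads per base, for regions of at least 300 bp and for all regions, each also without the 10 densest windows of 1 Mb. All curves climb up to a signal of 2 or more and are lower at 5 or more, where all regions stand at 14.7% and at 19.9% without the 10 windows.

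Regions that overlapped open chromatin were longer and slightly stronger. Overlap counts from 1 bp, so a longer region has more bases with which to meet a peak, and the part of this was not tested. Regions in total FAIRE had a median length of 222 bp and a median ChIP signal of 1.63, and the 16617 outside had 113 bp and 1.46. At a length of at least 300 bp the medians were 1.51 inside and 1.33 outside. Spearman's rho between ChIP signal and the score of the FAIRE peak was 0.0325 over 5689 regions, a weak relation. Regions far from open chromatin did not have a lower median ChIP signal, though runs of short repeated fragments were among them. The 3492 regions more than 100 kb from any total FAIRE peak had a median of 1.67, and 13.3% of them reached a signal of 5. Without the 10 densest windows these values were 1.59 and 8.02%, beside 1.48 and 2.88% for all regions. That filter leaves in the window on chromosome 2 from 52000001 to 53000000, where 82 of 117 regions reached a signal of 5. Its longest run, described further on, lay 158 kb from total FAIRE. The far regions were also shorter, at a median of 100 bp beside 137 bp for the whole list. The part of such runs and of length in these values was not tested.

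The ChIP regions that overlapped an SpDamID fragment were, with 1 exception, at least 200 bp long. A region overlapped an SpDamID fragment only with identical ends, in each of the 6 lists, as for regions cut on one map of fragments. The N1/MAML list overlapped 680 ChIP regions, N1/p300 706, N1/RBP 774, N1/N1 612, Mef2c/MAML 891 and Mef2c/p300 143. Taken over any list, the share of ChIP regions was 0% below 100 bp, 1 region of 4639 from 100 to under 200 bp, 3.07% at 200 to under 300 bp, 17.5% from 300 to under 400 bp and 26.5% from 400 to under 600 bp. It was 21.4% from 600 to under 1000 bp and 18.4% from 1000 bp up. The shortest fragment in an SpDamID list was between 109 and 226 bp, whereas the ChIP list starts at 4 bp. The 6 lists share their Dam control libraries. Fragments with ChIP had the higher median score in 5 lists, for instance 451 against 363 for those without in N1/MAML and 402.5 against 332 in N1/RBP. In Mef2c/p300 the median scores were 235 with ChIP and 286 without. Within each of the 6 lists the fragments with ChIP were the shorter, for instance at medians of 545 and 671 bp in N1/RBP. What the score measures is not stated in the headers. Within fragments that both mark, ChIP signal and score were weakly related, with rho from 0.0596 (N1/MAML, 680 regions) to 0.159 (N1/N1, 612 regions).

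**Figure D3:**
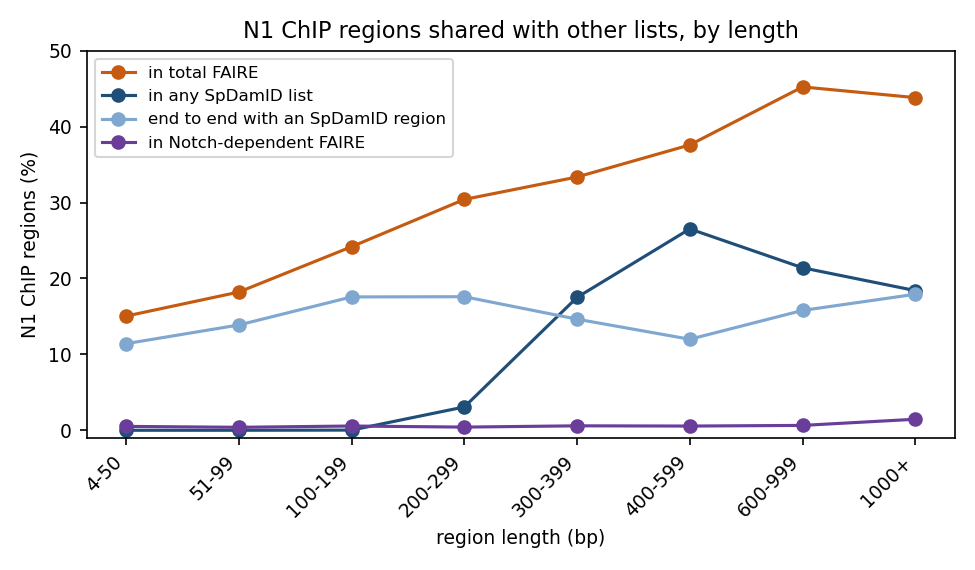
Share of N1 ChIP regions by length in bp that overlap total FAIRE, overlap any SpDamID list, lie end to end with an SpDamID region without overlap, or overlap Notch-dependent FAIRE. Overlap with SpDamID starts near 200 bp and peaks at 26.5%, whereas 11.4 to 17.9% lie end to end with an SpDamID region at every length.

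Many regions sat right beside an SpDamID fragment. Besides the 1361 that overlapped one (6.1%), a further 3256 (14.6%) were end to end with one, with 0 bases between. Of the 13811 regions under 200 bp, 1 overlapped an SpDamID fragment and 1962 (14.2%) were end to end with one. These neighbours lay in open chromatin about as often as the marked fragments did. Of regions of at least 300 bp, total FAIRE held 61.5% of the 1279 in an SpDamID fragment (58.7 to 64.1%) and 61.9% of the 830 end to end with one (58.5 to 65.2%). It held 50.1% of those 1 bp to 1 kb away, 16.6% of those over 1 kb to 10 kb away and 12.7% of the 1036 beyond 10 kb. A FAIRE peak has a median length of 903 bp, so neighbouring fragments can lie in the same peak. The median ChIP signal along these classes was 1.43, 1.56, 1.46, 1.30 and 1.32. Among short regions, 48.3% of those end to end with an SpDamID fragment and 14.2% of those with neither overlap nor contact lay in total FAIRE.

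ChIP regions in more N1 lists lay in open chromatin more often. Of the 5858 regions of at least 300 bp, 5.10% lay in all 4 N1 lists, and 203 in 3, 247 in 2, 383 in 1 and 4726 in none. Total FAIRE held 75.3%, 69.0%, 60.3%, 54.3% and 32.5% of them in that order. The median ChIP signal was 1.56 in all 4 lists, with quartiles of 1.22 and 2.10, and 1.39 in none, with quartiles of 1.14 and 1.86, so the classes overlapped widely. A ratio of 20 or more was reached by 29.1% in all 4 lists and 21.8% in none. The share was 22.5% of all regions of at least 300 bp and 27.4% of the whole ChIP list. A Mef2c list held 92.3% (276) of the regions in all 4 N1 lists and 3.11% of the 4726 in none. Regions in a Mef2c list but no N1 list numbered 147, with a median ChIP signal of 1.32 and 43.5% in total FAIRE. The 424 in an N1 list but no Mef2c list had 1.43 and 59.0%.

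Distances to the complexes were compared next. The share of ChIP regions within 1 kb, overlaps included, was 27.9% for Mef2c/MAML, 26.1% for N1/RBP, 23.3% for N1/N1, 18.8% and 18.5% for N1 with p300 and with MAML, and 10.5% for Mef2c/p300. The median distance was shortest to Mef2c/MAML at 6.83 kb, then N1/RBP at 10.3 kb, N1/N1 at 10.99 kb, N1/p300 at 17.05 kb, N1/MAML at 17.16 kb and Mef2c/p300 at 20.2 kb. For total FAIRE it was 9.01 kb, and for Notch-dependent FAIRE, a much smaller list of 2396 peaks, 239 kb. These distances depend on the size of each list, and Mef2c/MAML is the largest with 50380 regions. Counted as a share of each list, the order was another. A ChIP region lay within 1 kb of 18.2% of the N1/MAML list, 16.9% of N1/RBP, 14.1% of N1/p300, 13.3% of N1/N1, 10.7% of Mef2c/MAML and 5.86% of the Mef2c/p300 list. With ChIP regions of at least 300 bp alone the shares were 10.5%, 9.39%, 8.07%, 7.28%, 6.01% and 2.95% in the same order. Since each Mef2c complex has 1 library and the N1 complexes have 2 or 3, the number of libraries and the complex cannot be told apart.

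**Figure D4:**
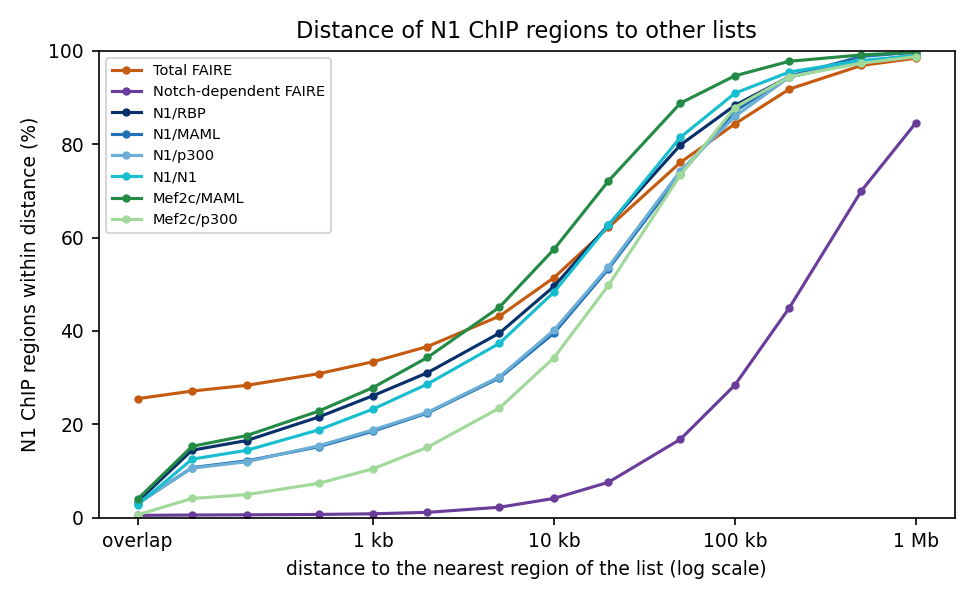
Cumulative share of the 22306 N1 ChIP regions within a distance (log scale, edge to edge) of the nearest region of each other list, with overlap at the left end. Total FAIRE starts at 25.5% and the SpDamID lists between 0.641% and 3.99%, and Notch-dependent FAIRE reaches only 28.4% at 100 kb.

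Few ChIP regions fell in FAIRE peaks listed as Notch-dependent. Notch-dependent FAIRE held 117 regions (0.525%, interval 0.434 to 0.628%), which formed 92 sites on 77 peaks. Their median ChIP signal was 1.57, against 1.5 for the other regions. Seen from the peaks, a ChIP region lay within 10 kb of 19.9% of Notch-dependent FAIRE and 41.1% of the total FAIRE peaks that are not Notch-dependent. The median distances were 47.9 kb and 18.6 kb. How peaks were chosen as Notch-dependent is not given in the labels or headers. Total FAIRE also held 103 of the 117, so the Notch-dependent list is not wholly contained in it. Contact with SpDamID was similar. Of the 117 regions 47.0%, and of the 5586 in total FAIRE but not Notch-dependent FAIRE 45.1%, were in or end to end with an SpDamID fragment. The 117 had a median length of 129 bp, beside 222 bp for all regions in total FAIRE, and the part of length was not tested.

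Of the 117, 20 lay in an N1 list and 11 in all 4. The 10 of these with the highest ChIP signal fell at few places. On chromosome 2, 5 stood within one stretch, from 26315080 to 26321282. The fragment at 26315080 to 26316404 had a ChIP signal of 16.3 at an input of 0.1, and scores of 833 for N1/RBP and 838 for N1/N1. A pair of neighbours, joined end to end at 26320207 to 26321282, had ChIP signals of 8.83 and 9.23, with input signals of 0.204 and 0.0303. The other 2, 26316405 to 26316630 and 26316842 to 26317945, had 3.01 and 1.45. A Mef2c list held 1 of these 5. No annotation was used, so it was not checked whether this stretch lies in the gene of a fused protein. The part of DNA from the fusion constructs in these values was not tested. The region on chromosome 2 from 152567255 to 152567632 had 2.55 reads per base, with scores of 740 in N1/MAML and 672 in Mef2c/MAML. On chromosome 8 the regions at 125071951 to 125072625, 114270036 to 114270378 and 114269277 to 114269953 had 1.36, 1.204 and 1.18, and on chromosome 17 that at 13820575 to 13820990 had 1.23. These 5 outside the first stretch all lay in a Mef2c list.

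Adjacent regions joined into 15950 sites. Single regions made up 12157 (76.2%) of them, pairs 2541 and runs of 3 regions 772, and 480 held 4 or more. Sites of 2 or more took in 10149 regions, 45.5% of the list. For the SpDamID lists joining removed 7.01 to 13.2% of the regions, beside 28.5% here. These rates are not alike in measure, since the ChIP list starts at 4 bp and the SpDamID lists at 109 to 226 bp. The median ChIP signal of a site was 1.36 for single regions, 1.56 for pairs, 1.71 for 3 and 2.01 for 4 to 9. Joined sites were also the stronger at matched site length, though the lengths of the regions within them were not matched. From 600 to under 1000 bp, 856 joined sites had a median of 1.71 and 867 single ones 1.29. Total FAIRE held 47.7% and 43.9% of them in that order. The regions of a joined site are shorter than the site, and shorter regions had the higher median signal. The part of region length in this was not tested. The 37 sites of 10 or more regions stood apart. Their median ChIP signal was 4.89, 3 of them (8.11%) lay in total FAIRE, and their regions had a median length of 54 bp.

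Several of the longest runs were made of fragments of one repeated length. On chromosome 2, from 52554689 to 52558061, 63 regions followed end to end, of which 59 were exactly 54 bp long, with ChIP signals from 1.57 to 11.4. A second run of 50 regions lay just before it, from 52551975 to 52554634, with 44 of 54 bp. On chromosome 17, from 84668231 to 84669098, all 31 regions were 28 bp long and had signals from 1.5 to 6.25. On chromosome 8, from 119058337 to 119059220, 36 regions of 12 to 34 bp had a mean depth of 9.12. Chromosome 3 held 4 of the 10 longest runs between 93013490 and 93023707, with 20 to 35 regions each and mean depths of 5.28 to 6.21. The remaining 2 lay on chromosome 2 from 167702283 to 167702710 and on chromosome 16 from 13312502 to 13312939. None of these 10 runs lay in total FAIRE, beside 24.6% of all sites. None lay in an SpDamID list either, beside 7.89% of all sites. Their regions were at most 162 bp long, and only 1 ChIP region under 200 bp overlapped an SpDamID fragment. Length thus nearly fixed their absence from the SpDamID lists. In these runs 8 regions had an input other than 0.1. A regular array on chromosome 6 was singled out after its values were seen. From 114442920 to 114587030, 53 regions of 303 bp recurred at a median spacing of 2.45 kb, and 48 of 453 bp stood in the same window. The 303 bp regions had ChIP signals from 2.36 to 10.9, with a median of 6.84, and none lay in total FAIRE. Unlike in most of the runs, an input other than 0.1 was common here, in 24 of these 53. In the whole window it was found in 71 of 134 regions (53.0%), beside 9.88% of all regions. The name of the deposited table says that repeats were masked, without saying how. The part of repeated sequence in these signals was not tested.

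By the share held in the fullest windows, ChIP sites were the most unevenly spread of the 9 lists. The 50 fullest of 1923 occupied windows of 1 Mb held 19.99% of the ChIP sites, against 10.6% for total FAIRE, 15.3% for Notch-dependent FAIRE and 8.64 to 11.7% for the SpDamID lists. The nearest other site was within 1 kb for 20.1% of ChIP sites, 15.3 to 29.6% of SpDamID sites and 12.01% of total FAIRE peaks. The window with the most regions, 255, was chromosome 3 from 93000001 to 94000000. Its regions joined into 40 sites, had a median ChIP signal of 6.15, and 1 of them lay in total FAIRE. The next, chromosome 5 from 140000001 to 141000000, held 233 regions in 143 sites with a median of 1.81 and 32 in total FAIRE. Then came chromosome 8 from 124000001 to 125000000, with 181 regions in 120 sites, a median of 1.43 and 43 in total FAIRE. It also held 97 N1/RBP and 89 Mef2c/MAML regions and 51 total FAIRE peaks. Also dense, and named after its values were seen, was chromosome 15 from 12000001 to 13000000, which had 172 regions, 54 of them with an input other than 0.1, and no total FAIRE peak, beside 170 Mef2c/MAML, 152 Mef2c/p300 and 103 N1/N1 regions.

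ChIP sites and open chromatin were not spread alike over the chromosomes. Density was taken over the span to the last region of any list. It was 12.7 sites per Mb on chromosome 8 and 12.4 on chromosome 19, and 3.38 on chromosome 1 and 1.72 on X. Set against total FAIRE peaks, chromosome 8 had 1.36 ChIP sites per peak, chromosome 15 1.12 and chromosome 5 1.09, whereas chromosome 1 had 0.497 and chromosome 13 0.519. The median ChIP signal ranged from 1.39 on chromosome 7 to 1.74 on chromosome 3. The share of regions with an input other than 0.1 was 5.91% on chromosome 4 and 16.0% on chromosome 6, and 9.46% on chromosome 8.

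**Figure D5:**
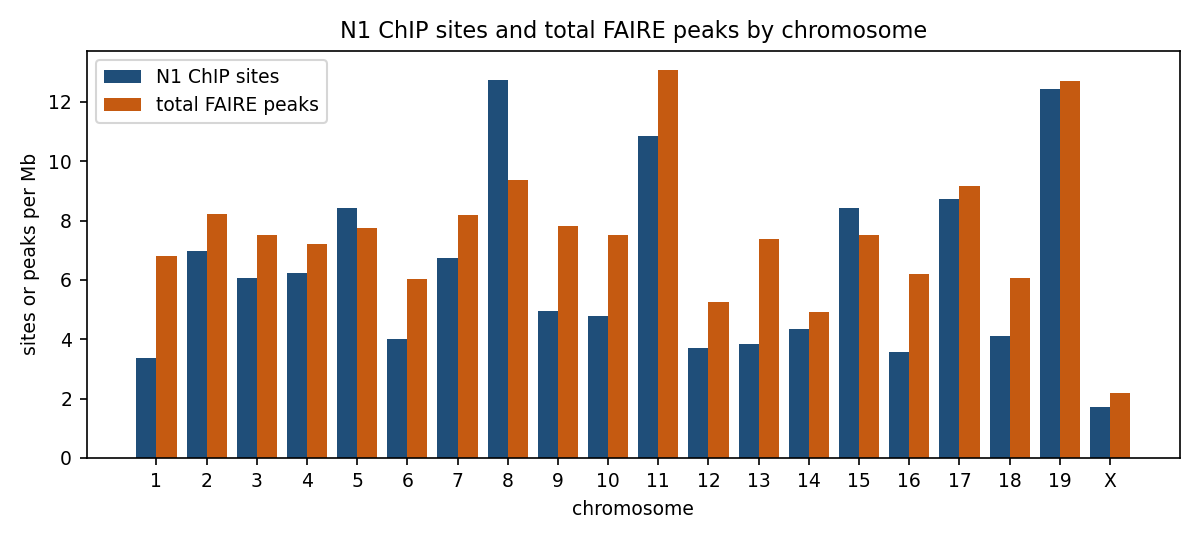
N1 ChIP sites (joined regions) and total FAIRE peaks per Mb on each chromosome, without error bars since each comes from 1 list. ChIP sites outnumber FAIRE peaks on chromosomes 5, 8 and 15 and are fewest per FAIRE peak on chromosome 1, at 3.38 against 6.80 per Mb.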

How the data were processed

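Sites were mapped in mK4 cells by ChIP, SpDamID and FAIRE (25 libraries), and 9 lists were deposited, in coordinates of mm9 (build per the submitters' processing notes). For ChIP the authors deposited a signal for ChIP, a signal for input and their ratio, above 10 per the file name. The columns have no header and were told apart by the quotient. Each SpDamID list holds a score over Dam, kept from a confidence of 0.999 up, per the file headers. For FAIRE the deposited score is that of the peak caller MACS. Lists were matched to complexes by initials. No source used here gives the aligner.

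All positions count from 1, and FAIRE starts were moved by 1 base. Overlap means 1 bp or more, and sites are regions joined end to end. No test was run, as each arm has 1 library. Depth per library is unknown, and intervals cover counting error only. The members, classes and lists were chosen with earlier results of these data known. Regions named are the 10 with the highest ratio among inputs other than 0.1, the 10 sites with most regions, the 10 Notch-dependent regions in most N1 lists (ties by ChIP signal) and the 3 densest windows of 1 Mb. The planned gene lists and motif counts needed an mm9 annotation or genome and were left out. The overlap and distance code was tested on 900 simulated cases, with 0 differences from a plain comparison of all pairs, and a planted share of 40% on 2000 regions came back as 40%. Python 3.11.15, pandas 2.3.3, numpy 2.4.6 and scipy 1.17.1 were used. Alternatives are in the closing section.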

Additional observations from a re-analysis of the deposited data

Results flagged for a closer look

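A signal stood in data outside the comparisons: the 1 ChIP region on chromosome Y, from 1426175 to 1426248 (74 bp), had a ChIP signal of 1.38 reads per base at an input of 0.1, a ratio of 13.8 to the input.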

How the results depend on the processing

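There were 48 alternative values for 7 results. Of these, 28 stayed within the 95% interval of the reported value or, for a count, within 1.5 times it, and 20 moved. Only the log2 difference in signal between long and short regions could change sign, and it did not. The share in total FAIRE, 25.5%, was 23.3% by 50% overlap, 23.2% by region centre, 30.8% at a ratio of 20 or more, 38.6% with an input other than 0.1 and 24.6% by site. The share in Notch-dependent FAIRE was 0.408% with an input other than 0.1. The share in any SpDamID list, 6.1%, was 5.49% at a ratio of 20, 13.5% with an input other than 0.1, where regions are longer, and 7.89% by site. Sites numbered 4405 and 1958 under these same filters, which keep fewer regions, and 14184 with gaps up to 1000 bp joined. Long regions stayed below short ones in signal, by log2 values of -0.12 at a ratio of 20 and -0.65 with an input other than 0.1. The median distance to total FAIRE was 9.71 kb between centres, 8.52 kb at a ratio of 20 and 4.65 kb with an input other than 0.1. The nearest other site, at a median of 10.5 kb, was at 36.7 kb and 97.6 kb under these filters and at 10.98 kb and 12.4 kb without the 3 and the 10 densest windows. The window, site and raised-input alternatives were chosen after seeing the data. Where no cause is named, the cause was not tested. No paired analysis was possible because the ChIP arm has 1 library and the lists carry no value per library, and for the same reason no library could be left out.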

Other observations

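The 30 regions with a ChIP signal of exactly 1 all had an input other than 0.1, as a list kept above a ratio of 10 requires. Of the 910 regions with a ChIP signal of 5 or more, 3.96% lay in an SpDamID list, beside 6.1% of all regions, and 0.549% in Notch-dependent FAIRE, beside 0.525% of all. An input other than 0.1 was found in 35.4% of the 910 and in 9.88% of all regions, shares on which the ratio threshold acts. The 910 were also shorter, at a median of 83 bp beside 137 bp, and 638 of them were under 200 bp. Regions that short almost never overlapped an SpDamID fragment. Among regions of at least 300 bp, 16.5% of the 206 at a signal of 5 or more lay in an SpDamID list. In the classes of lower signal the share ran from 19.3% under 1.2 to 26.0% from 3 to under 5. The part of length in these shares was not tested.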
